A study of Mus musculus with 2 samples.

Results

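The genes examined were noncoding RNA genes that host small nucleolar RNAs (snoRNAs) and long noncoding RNAs (lncRNAs) that are abundant in many cells. They were chosen by symbol in the GENCODE M1 annotation of the mouse genome build NCBI37/mm9, where 9 of the 10 symbols looked for were present among 37273 annotated genes. Gas5, Snhg1, Snhg12, Snhg3, Snhg5 and Snhg11 contain snoRNA genes, and Malat1, Neat1 and Miat do not. The symbol Snhg6 was not found, under that name or a RefSeq synonym, and this gene was not analysed here. R-loop peaks were assigned to a gene when they overlapped it by at least 1 bp or lay within 2 kb of it. Of the 22132 peaks in the deposited list, 7 met this rule.

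The peaks came from DRIP-seq of primary neural stem/progenitor cells (NSPCs) cultured from the frontal brain of C57BL/6 mice at postnatal day 7. The study's methods describe treatment with 0.5 µM aphidicolin, an inhibitor of DNA polymerases that causes mild replication stress, for 48 h. In DRIP-seq, genomic DNA is cut with restriction enzymes and the fragments that carry RNA:DNA hybrids are pulled down with the S9.6 antibody and sequenced. The study mapped R-loops in these cells to relate them to DNA breaks. A single list was analysed, with 1 DRIP group, so that values have no error between replicates, no test was possible, and the depth behind each peak is unknown. The list contains positions alone, without height or strand. The input library was not analysed here. Of the markers looked up to describe the culture, 8 of 10 genes of neural stem and progenitor cells overlapped a peak, against 0 of 5 of neurons, 1 of 5 of microglia and 1 of 3 of endothelial cells, beside 39.6% of all protein-coding genes, which describes peaks and not expression.

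An R-loop forms when RNA pairs with its template DNA strand and leaves the other strand single, and a coding strand rich in G is known to favour it. SnoRNAs guide the chemical modification of ribosomal and other RNAs. In mammals most are cut from the introns of host transcripts, and in hosts such as Gas5 and Snhg1 the spliced RNA that remains encodes no conserved protein. Box C/D snoRNAs guide methylation and box H/ACA snoRNAs guide the formation of pseudouridine. Malat1 is a nuclear RNA associated with splicing speckles, Neat1 is the scaffold of nuclear bodies called paraspeckles, and Miat is a nuclear lncRNA found in neural tissue.

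Peaks overlapped 5 of the 9 genes, namely Gas5, Snhg1, Snhg12, Malat1 and Neat1. The share was 22.8% among the 3845 noncoding genes of the annotation, 21.5% among the 2389 noncoding genes between the shortest and the longest of the 9 in length, and 27.1% among all genes. With the margin of 2 kb the count remained 5 of 9, compared to 27.8% of noncoding genes and 30.8% of all genes. A peak contained the transcription start site (TSS) of 3 of the 9 genes, Gas5, Malat1 and Neat1, against 11.2% of noncoding genes. A peak contained the transcription end site (TES) of Snhg1 and Malat1, or 2 of 9, against 6.61% of noncoding genes. The 9 genes were chosen by name and are few, and these shares are given side by side without a test. Snhg11 is annotated as protein-coding in this release and is not part of the noncoding background.

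**Figure D1:**
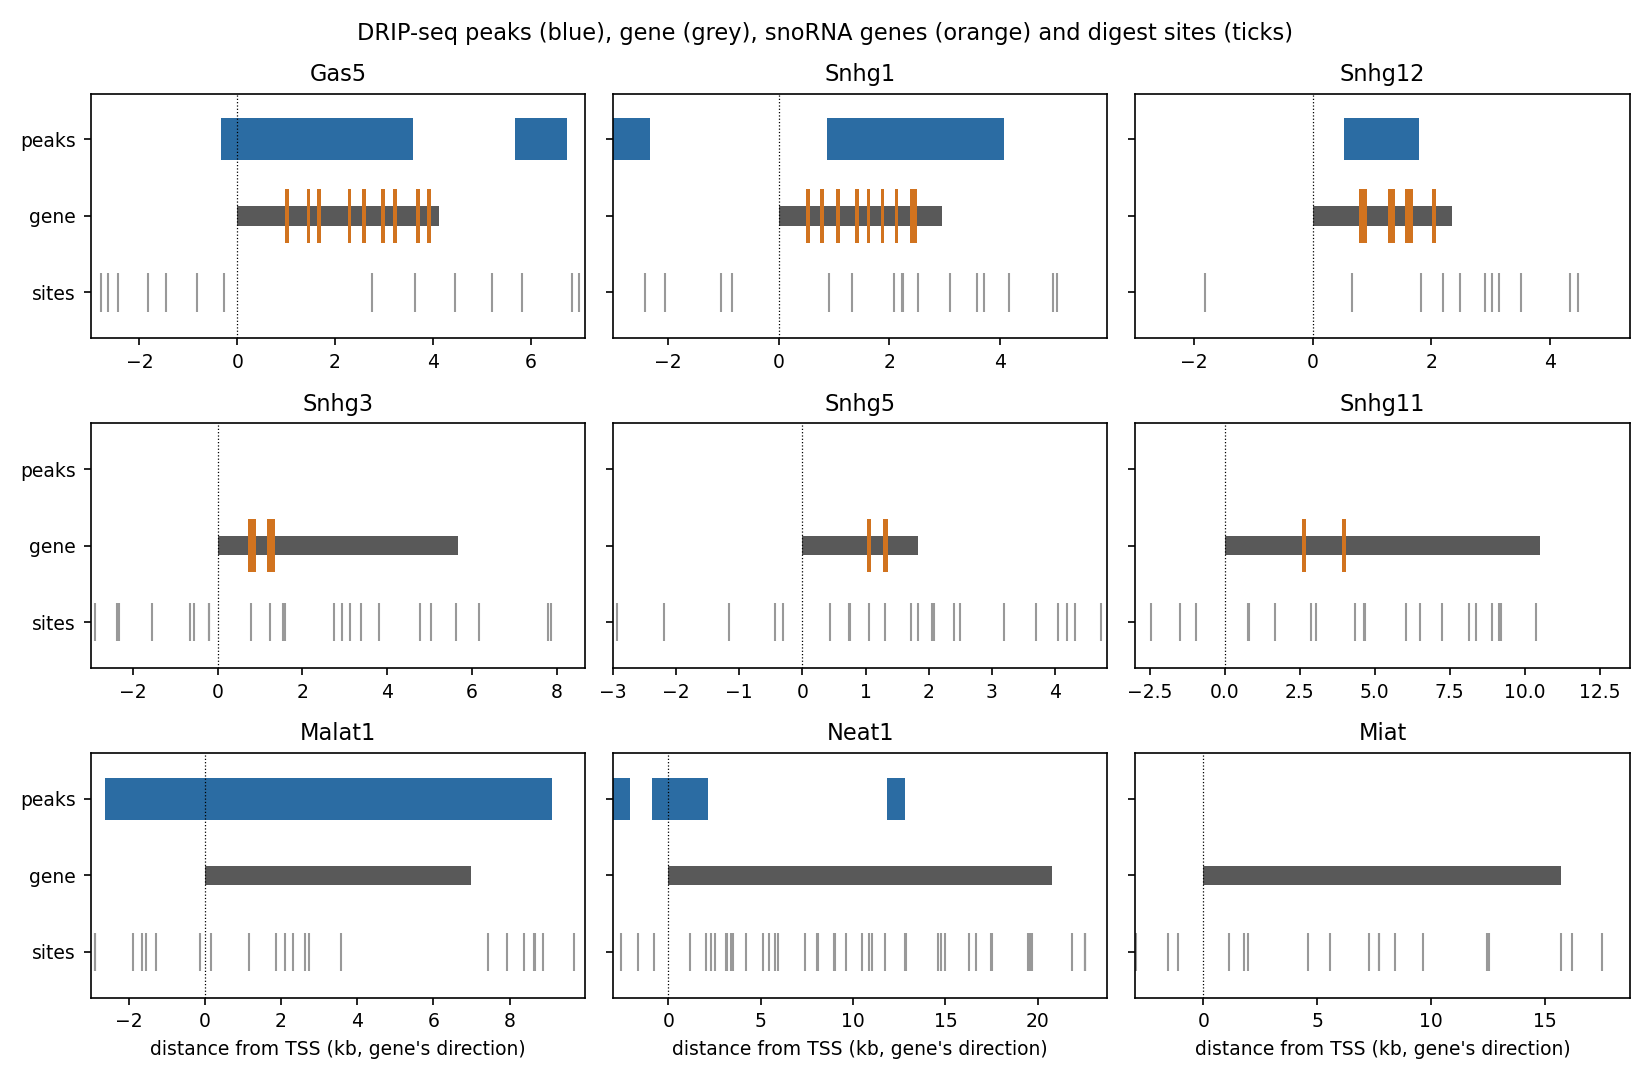
Each panel plots 1 gene along the distance from its TSS in kb, in the gene's direction, with peaks in blue, the gene in grey, snoRNA genes in orange and sites of the 5 digestion enzymes as ticks. The peaks of Snhg1 and Snhg12 begin downstream of the TSS, the peak of Malat1 reaches past both gene ends, Snhg3, Snhg5, Snhg11 and Miat have no peak in their windows, and the peaks at the left border in Snhg1 and Neat1 lie more than 2 kb from these genes.

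The sequences that lie where peaks end are shown first. In all 3 host genes with a peak, an edge of it fell between neighbouring snoRNA genes, and the opposite edge lay outside the snoRNA genes. For each of Gas5, Snhg1 and Snhg12 the last snoRNA inside the peak and the nearest one outside it are given 5′ to 3′ on the coding strand of mm9. Capitals mark the first TGATGA (the C box) and the last CTGA (the D box), letters that 23.6% and 78.5% of all 1552 annotated snoRNA genes contain on their own strand.
SNORD77 in Gas5, inside, chr1:162967732-162967812, plus strand: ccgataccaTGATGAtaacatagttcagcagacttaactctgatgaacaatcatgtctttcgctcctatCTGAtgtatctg
Snord47 in Gas5, outside, chr1:162968213-162968289, plus strand: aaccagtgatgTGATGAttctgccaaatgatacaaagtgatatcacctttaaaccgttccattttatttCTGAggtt
SNORD26 in Snhg1, outside, chr19:8798741-8798815, plus strand: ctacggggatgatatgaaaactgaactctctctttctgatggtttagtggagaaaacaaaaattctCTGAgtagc
SNORD27 in Snhg1, inside, chr19:8799021-8799092, plus strand: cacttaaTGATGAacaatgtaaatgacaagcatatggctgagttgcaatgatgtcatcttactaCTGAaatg
Snora61 in Snhg12, inside, chr4:131866155-131866284, plus strand: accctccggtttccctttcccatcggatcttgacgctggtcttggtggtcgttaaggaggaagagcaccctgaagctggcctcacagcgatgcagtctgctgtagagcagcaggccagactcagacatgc
Snord99 in Snhg12, outside, chr4:131866606-131866679, plus strand: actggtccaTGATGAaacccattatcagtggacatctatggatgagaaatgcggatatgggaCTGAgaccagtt
In SNORD26 the letters TGATGA were not found, and Snora61 is a box H/ACA snoRNA in which no box was marked. Snord47 began 69 bp beyond the peak of Gas5, SNORD26 ended 39 bp before the peak of Snhg1, and Snord99 began 221 bp beyond the peak of Snhg12.

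The DNA between each of these snoRNA pairs also contains a site of a digestion enzyme close to the peak edge. The next stretches run from 10 bp beyond the edge to 10 bp beyond the site, or the reverse, with the enzyme site in capitals. They are shown because the DNA was digested before the pull-down.
Gas5, downstream edge, BsrGI, chr1:162968133-162968204, plus strand: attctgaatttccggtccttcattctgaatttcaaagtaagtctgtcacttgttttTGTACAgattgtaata
Snhg1, upstream edge, XbaI, chr19:8798845-8798903, plus strand: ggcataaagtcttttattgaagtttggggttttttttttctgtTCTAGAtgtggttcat
Snhg12, downstream edge, HindIII, chr4:131866374-131866437, plus strand: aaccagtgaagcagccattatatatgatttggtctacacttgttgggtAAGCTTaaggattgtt
The site lay 46 bp from the edge in Gas5, 33 bp in Snhg1 and 38 bp in Snhg12. The opposite edges of these peaks, not shown, lay farther from a site, at 76, 101 and 133 bp. Of the edges of all peaks in the list, 28.7% lay within 100 bp of a site.

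Gas5 (ENSMUSG00000053332), known for transcripts that accumulate when cell growth stops, spans 4.118 kb at chr1:162964553-162968670 on the plus strand and contains 9 snoRNA genes, all in introns of its transcript Gas5-001. All 9 also touch an exon of another annotated Gas5 transcript. The peak of Gas5 at chr1:162964212-162968143 was 3.932 kb wide and ran from -341 to 3590 bp relative to the TSS, which placed 87.2% of the gene inside. It was wider than 84.7% of the peaks in the list, whose median width was 1.322 kb. The outermost TSS of Gas5 belongs to the transcript Gas5-010, and 14 of its 25 annotated transcripts begin within 25 bp of a position 744 bp further downstream, which also lay in the peak. Inside the peak were 7 of the 9 snoRNA genes, SNORD74, SNORD75, SNORD24, SNORD44, SNORD78, SNORD79 and SNORD77. Snord47 and SNORD81, the snoRNAs nearest to the gene's 3′ end, lay outside.

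The Gas5 peak covered sequence of both strands, and DRIP-seq of this kind cannot assign it to either. The protein-coding gene Zbtb37, which encodes a zinc finger protein, starts inside Gas5 on the opposite strand, with an overlap of 428 bp, and 2.95% of its length lay in peaks. Another peak was counted for Gas5 only through the margin. Restricting the assignment to peaks that overlap the gene therefore left Gas5 with 1 peak in place of 2.

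Snhg1 (ENSMUSG00000090867), the host of SNORD25 to SNORD31 and Snord22, spans 2.947 kb at chr19:8797986-8800932 on the plus strand. Its peak at chr19:8798855-8802053 was 3.199 kb wide, wider than 78.8% of peaks, and ran from 869 to 4067 bp relative to the TSS. The peak covered 70.5% of the gene and its TES, while the TSS lay outside. Of 8 snoRNA genes 6 lay inside, and SNORD25 and SNORD26, the pair closest to the TSS, lay outside. The annotation places 6 of the 8 snoRNAs in an exon of the transcript with the most exons, so exon and intron cannot be separated for this gene.

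Upstream of Snhg1, the protein-coding gene Slc3a2 begins on the opposite strand at -127 bp relative to the TSS and encodes the heavy chain of amino acid transporters. Peaks covered 86.7% of Slc3a2, and the one nearest to Snhg1, at chr19:8777267-8795668, was 18.402 kb wide. This peak ended 2317 bp from Snhg1, just outside the margin. Between them the shared promoter region was free of peaks.

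Snhg12 (ENSMUSG00000086290) spans 2.347 kb at chr4:131864593-131866939 on the plus strand and contains 3 box H/ACA snoRNA genes and the box C/D snoRNA gene Snord99, all in introns of Snhg12-002. Of these 4 snoRNA genes, 3 also touch an exon of another annotated transcript. The peak of Snhg12 at chr4:131865122-131866384 was 1.263 kb wide, close to the median of the list, and ran from 529 to 1791 bp relative to the TSS. It covered 53.8% of the gene and contained neither the TSS nor the TES of the gene. The transcripts Snhg12-003 and Snhg12-004 begin inside the peak, and Snhg12-006 ends inside it. Snora16a, Snora44 and Snora61 lay inside it. No other annotated gene overlapped the peaks of Snhg1 and Snhg12, apart from the snoRNA genes within them.

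The other host genes had no peak within 2 kb. Snhg3 (ENSMUSG00000085241), the host of Snora73a and Snora73b at chr4:131903929-131909601 on the minus strand, was 7832 bp from the nearest peak, which lay downstream in Rcc1. Rcc1 encodes a chromatin-bound exchange factor for the GTPase Ran, starts 81 bp from Snhg3 on the same strand and overlaps it over 5592 bp. Snhg5 (ENSMUSG00000032424), which contains a pair of SNORD50 genes at chr9:88415894-88417721 on the minus strand, was 7348 bp from the nearest peak. Snhg11 (ENSMUSG00000044349), with a pair of SNORA71 genes at chr2:158201374-158211881 on the plus strand, was 14295 bp from the nearest peak. That peak was 6.267 kb wide and covered 96.2% of 9430008C03Rik, which RefSeq lists as Snhg17, a lincRNA gene with 3 snoRNA genes.

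Of the 27 snoRNA genes in the 6 hosts, 16 lay wholly inside a peak and 0 lay across an edge. Of all 1552 annotated snoRNA genes, 118 overlapped a peak and 114, or 7.35%, lay wholly inside one, so few lay across an edge anywhere. The 16 shared 3 peaks, with 7 in Gas5, 6 in Snhg1 and 3 in Snhg12, and are not separate observations. By class, 13 of 20 SNORD genes and 3 of 7 SNORA genes were inside. All of these SNORD genes were in Gas5 and Snhg1 and all of these SNORA genes in Snhg12, so class and host cannot be told apart. The hosts with a peak contained 9, 8 and 4 snoRNA genes and those without contained 2 each. Among annotated hosts of at least 1 kb, those with at least 3 snoRNA genes overlapped a peak in 26 of 32 cases and those with 1 or 2 in 173 of 271, although their median lengths of 5.33 kb and 36.6 kb differ. This division was chosen after the values were seen, and the 32 hosts include Gas5, Snhg1 and Snhg12.

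**Figure D2:**
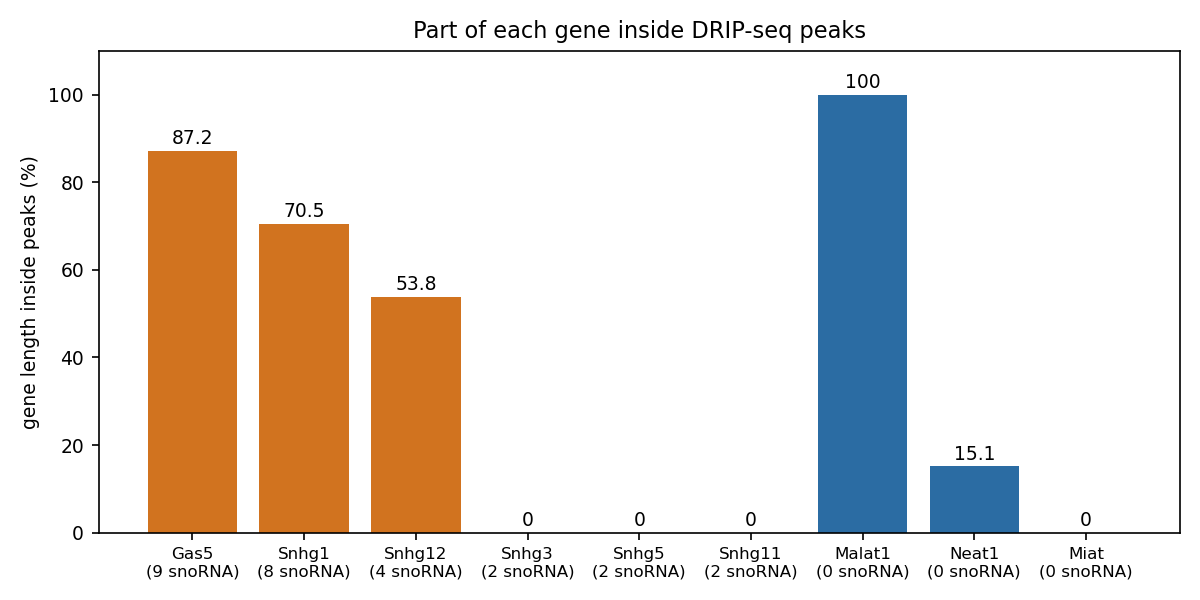
Bars give the percentage of each gene's length inside peaks, from 0, with the number of snoRNA genes it contains below its name and snoRNA hosts in orange. Malat1 lay wholly inside a peak, Gas5, Snhg1 and Snhg12 followed with 87.2%, 70.5% and 53.8%, Neat1 had 15.1%, and the other 4 genes had 0%.

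Malat1 (ENSMUSG00000092341), a mostly unspliced gene of 6.982 kb at chr19:5795690-5802671 on the minus strand, lay completely inside 1 peak. The peak at chr19:5793552-5805284 was 11.733 kb wide, wider than 98.8% of peaks in the list. It began 2613 bp upstream of the TSS and ended 2138 bp past the TES. It also contained Gm20417, a transcript of 988 bp on the opposite strand within Malat1, and both strands could contribute. All 5 annotated Malat1 transcripts were therefore covered from start to end.

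Neat1 (ENSMUSG00000092274) spans 20.771 kb at chr19:5824708-5845478 on the minus strand and had 2 peaks, which together covered 15.1% of it. The peak at chr19:5843313-5846337 was 3.025 kb wide and ran from -859 to 2165 bp relative to the TSS. Neat1 has a short and a long form that share this start, and only the long form is needed to build paraspeckles. The short form, Neat1-002, of 3.17 kb, was covered over 68.3% of its length. The other peak, at chr19:5832665-5833644, was 0.98 kb wide and lay 11834 to 12813 bp from the TSS, in the part that only the long form Neat1-001 contains. The rest of that part had no peak.

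The genes Malat1 and Neat1 are neighbours, separated by 22.0 kb that contained 1 peak. A peak of 6.02 kb at chr19:5847562-5853581 lay 2083 bp upstream of Neat1 and overlapped Frmd8, so that it was just outside the margin. With a margin of 5 kb it and the peak in Slc3a2 would have been added. Miat (ENSMUSG00000086878), which spans 15.721 kb at chr5:112642248-112657968 on the minus strand, was 53997 bp from the nearest peak, the largest distance of the 9 genes. Absence from the list is not a measurement of absent hybrids, since depth and transcription at these genes were not measured here.

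Among the 2389 noncoding genes of similar length, 65 were covered over a larger share than Gas5, 84 than Snhg1, 123 than Snhg12 and 324 than Neat1. Malat1 shared full coverage with 45 other genes. Neat1 is the longest gene examined here, and its 5′ peak was of similar width to the peaks of Gas5 and Snhg1. Whether its low share goes with its length was not tested.

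**Figure D3:**
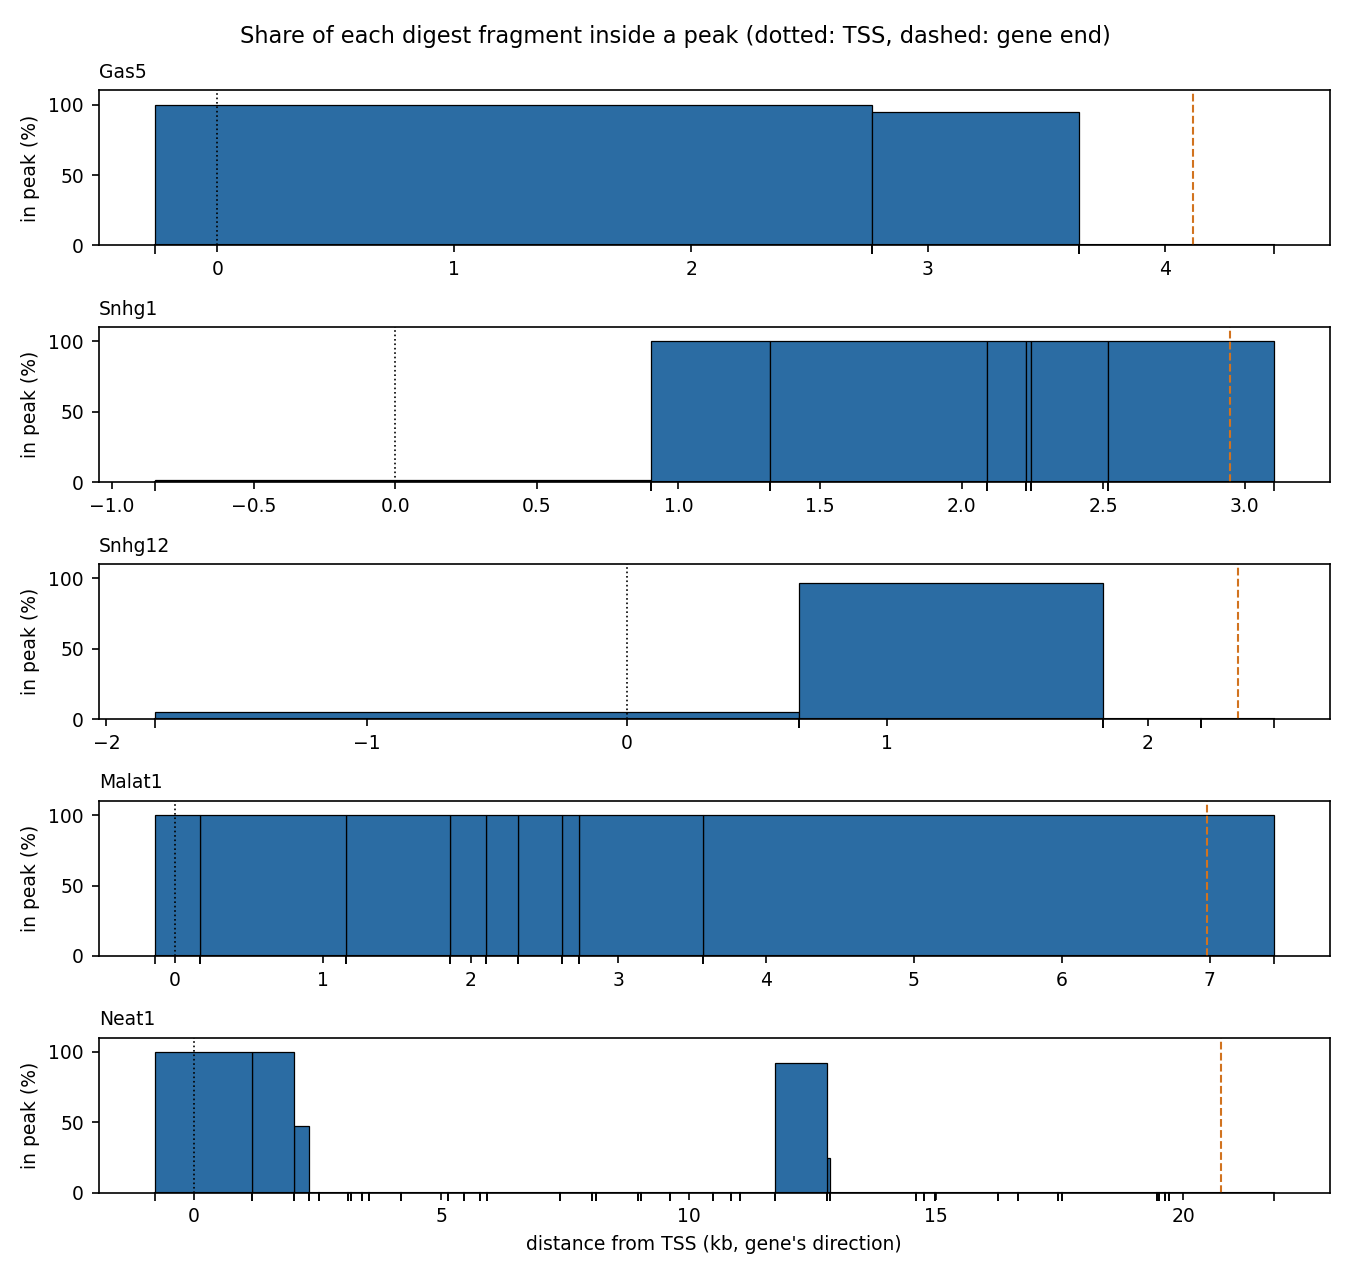
For the 5 genes with a peak, each bar spans a digest fragment between neighbouring enzyme sites, in kb from the TSS, and its height is the percentage of that fragment inside a peak. Fragments were mostly near 0% or 100%, as those without a peak edge must be. In Snhg1 and Snhg12 the fragment that holds the TSS was at 1.88% and 5.37%.

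Because the DNA was cut with EcoRI (GAATTC), HindIII (AAGCTT), BsrGI (TGTACA), SspI (AATATT) and XbaI (TCTAGA), whose sites read the same on both strands, the peaks were compared with the fragments that a complete digest would give. The 5 genes with a peak overlapped 60 such fragments, of which 21 lay inside peaks over more than 90% of their length, 37 over less than 10% and 2 in between. Both of those in between belonged to Neat1. A fragment without a peak edge in it must lie at 0% or 100%, and the 6 peaks have only 12 edges. This split is therefore a description, and no such split was computed for other peaks. The 12 edges of the 6 peaks that overlapped a gene lay 17 to 270 bp from the nearest site, with a median of 81 bp. Within 100 bp of a site were 7 of the 12, compared to 28.7% of the edges of all peaks. The genome has 1.86 such sites per kb and the 9 genes had between 0.486 per kb in Gas5 and 3.28 per kb in Snhg5.

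In Snhg12 the peak almost matched 1 fragment, from 662 to 1829 bp relative to the TSS, of which 96.8% lay inside. The fragment before it, from -1815 to 662 bp, contains the TSS and lay inside over 5.37%, and the fragment after it lay inside over 0%. In Snhg1 the fragment with the TSS, from -850 to 902 bp, lay inside over 1.88%, and the next 6 fragments lay inside over 100%. The G skew of the former, the difference of G and C divided by their sum on the coding strand, was 0 over the 1.752 kb. In Gas5 the fragment from -265 to 2765 bp contained the TSS and lay inside over 100%, and the last fragment of the gene, from 3636 bp, over 0%. The snoRNA genes outside the peaks of the 3 hosts thus lay on other digest fragments than those inside. Whether digestion set the edges was not tested.

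The peak sequences were next examined for G on the coding strand. In each of the 6 peaks that overlap a gene, the 60 bp in which G most outnumber C are shown, with runs of at least 3 G in capitals. Windows were taken from the coding strand of mm9 and runs of 3 G are common, as 96.8% of noncoding genes have at least 1 in their first 300 bp.
Gas5, chr1:162965169-162965228, plus strand: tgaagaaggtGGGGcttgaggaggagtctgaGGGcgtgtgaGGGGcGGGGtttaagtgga
Snhg1, chr19:8801937-8801996, plus strand: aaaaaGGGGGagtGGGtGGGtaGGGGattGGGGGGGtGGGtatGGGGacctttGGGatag
Snhg12, chr4:131865548-131865607, plus strand: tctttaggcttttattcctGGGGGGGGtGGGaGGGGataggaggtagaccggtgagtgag
Malat1, chr19:5799987-5800046, minus strand: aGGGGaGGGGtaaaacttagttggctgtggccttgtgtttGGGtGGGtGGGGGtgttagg
Neat1, 5′ peak, chr19:5843330-5843389, minus strand: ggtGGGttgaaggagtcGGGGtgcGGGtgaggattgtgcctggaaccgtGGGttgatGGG
Neat1, internal peak, chr19:5832745-5832804, minus strand: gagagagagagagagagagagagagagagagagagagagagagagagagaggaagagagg
These windows contained 28 to 34 G and 0 to 6 C. The window of Gas5 began 616 bp from its outermost TSS, upstream of the position near which 14 of its 25 transcripts begin. The window of Snhg1 lay 3951 bp from the TSS, past the annotated end of the gene. The window of the internal Neat1 peak was a repeat of ga without a run of G. The window richest in C of each peak contained 19 to 37 C and 7 to 12 G, and it was about as uneven in the 5′ peak of Neat1, with 37 C and 9 G, and in Gas5, with 35 C and 8 G. Because the windows were chosen for these letters, the counts are a description.

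All 6 peaks had more G than C on the coding strand, with a skew from 0.0847 in the internal Neat1 peak to 0.211 in Snhg1. Of 14999 peaks in the list that overlap genes of a single strand, 66.0% had more G than C on that strand, and of the 355 over noncoding genes alone 54.9%. Intermediate values were 0.0992 in the 5′ peak of Neat1, 0.100 in Malat1, 0.116 in Snhg12 and 0.170 in Gas5. When the bases outside the gene were left out, the skew was 0.194 in Malat1 and 0.208 in the 5′ peak of Neat1. The bases upstream of the TSS had a skew of -0.0550 in Malat1 and -0.188 in Neat1, and those past the TES of Malat1 had 0.0326. The GC content of the peaks was between 40.4% in Snhg1 and 54.3% in the 5′ peak of Neat1, around the median of 48.7% of all peaks.

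**Figure D4:**
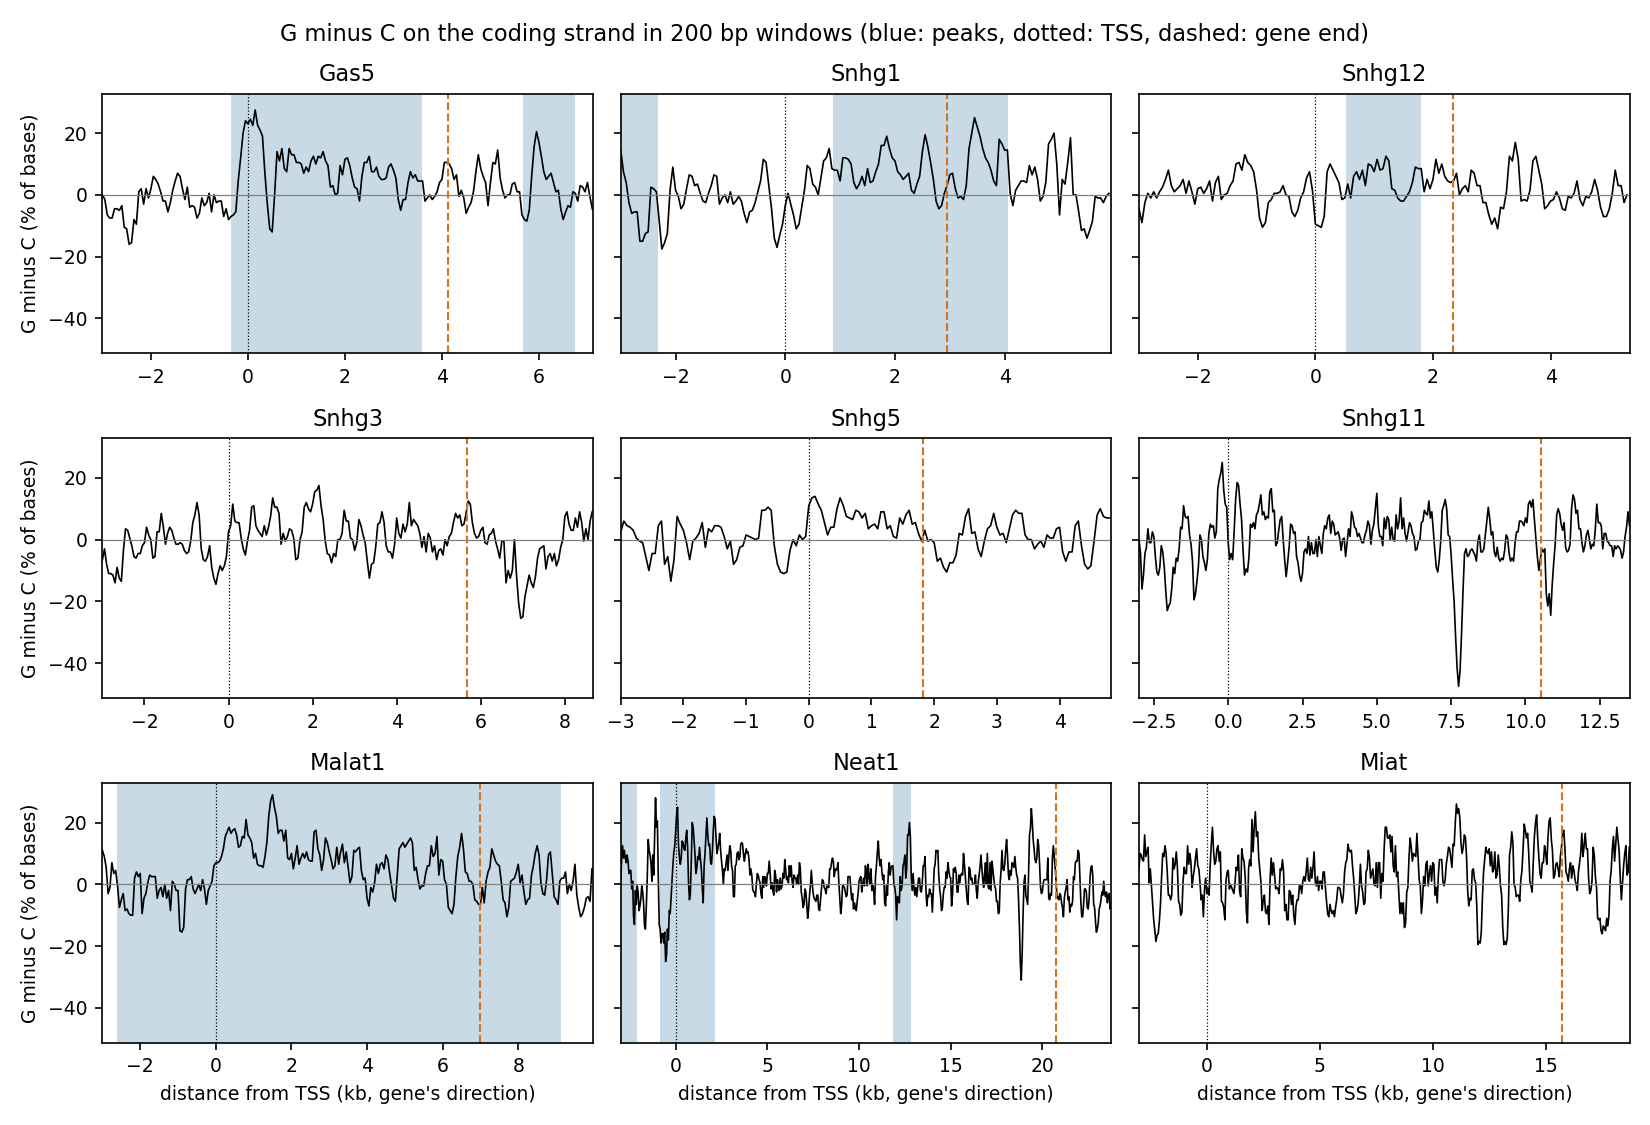
Each panel plots G minus C on the coding strand, in percent of bases in windows of 200 bp, along the distance from the TSS in kb, with peaks shaded. Values at the TSS are above 0 in Gas5, Malat1 and Neat1, and also in Snhg3 and Snhg5, which have no peak within 2 kb. They are below 0 at the TSS of Snhg1, Snhg11 and Snhg12, and dip below 0 in Gas5 within its first 1 kb.

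Over the first 1 kb after the TSS, the skew was above 0 in all 9 genes, compared to 58.8% of noncoding genes and 80.6% of the 36 noncoding snoRNA hosts. It was highest in Malat1 at 0.367, followed by Neat1 at 0.230, Snhg5 at 0.202 and Gas5 at 0.176. The others were Snhg3 at 0.0751, Snhg1 at 0.0729, Miat at 0.0588, Snhg12 at 0.0558 and Snhg11 at 0.0297. The 3 genes with a TSS in a peak were thus 3 of the 4 highest, and Snhg5, the remaining one, had no peak. Among noncoding genes of the annotation, the skew was above 0 in 57.7% of those overlapping a peak and 59.1% of the rest. The same shares were 72.3% and 60% in protein-coding genes, and 91.7% and 75% in noncoding snoRNA hosts. For the hosts these are 11 of 12 and 18 of 24 genes. The 12 include Gas5, Snhg1 and Snhg12, and the 24 include Snhg3 and Snhg5. Over the first 500 bp, which lay upstream of their peaks, Snhg1 and Snhg12 had a skew of -0.00444 and -0.00752. Runs of at least 3 G in the first 300 bp numbered 21 in Gas5, 11 in Miat, 10 in Snhg3, 9 in Neat1 and 0 in Malat1, against a median of 5 in noncoding genes. In Gas5 these windows start at the outermost TSS, 744 bp upstream of the position near which 14 of its 25 transcripts begin. The first 300 bp of Gas5 also lie within its overlap of 428 bp with Zbtb37 on the opposite strand. The number of runs did not separate genes with a peak from those without, as Malat1 had the widest peak.

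Other snoRNA hosts were looked up for comparison. Of the 305 genes with a snoRNA gene on the same strand, 65.6% overlapped a peak, but their median length was 33.2 kb. Among the 36 noncoding hosts the share was 33.3%, and 3 of the 12 with a peak were Gas5, Snhg1 and Snhg12. Of 14 further lncRNA hosts on a list, 4 were found by symbol and 8 through a RefSeq synonym, and 5 of these 12 overlapped a peak. Snhg9, Snhg17, Snhg20, Zfas1 and Rian were covered over 100%, 96.2%, 43.2%, 29.3% and 0.587% of their length. Snhg9, of 0.435 kb, lies within the limits of the protein-coding gene Rps2, which was covered over 67.0%, so their peaks cannot be told apart. Snhg9 and Zfas1 had their TSS in a peak, and as in Snhg1 the TSS of Snhg17 lay outside while its TES lay inside. The gene listed for Snhg14 is a fragment of 0.109 kb and measures little of it.

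Of 22 listed protein-coding hosts, 17 overlapped a peak, compared to 39.6% of protein-coding genes and 65.6% of the 305 annotated snoRNA hosts. Nop56, Hspa8, Eif4a1, Rpl23a and Prrc2a lay wholly inside peaks like Malat1, whereas Rpl7a, Eef1b2, Taf1d and Cct6a were among the 5 that did not overlap one. Taf1d, which like Snhg1 contains 8 snoRNA genes, was 39819 bp from one.

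The proteins that work with these RNAs were listed too. Box C/D snoRNAs act with fibrillarin and the Nop proteins, and 3 of 5 of their genes overlapped a peak, with 100% of Nop56, 35.5% of Fbl and 13.2% of Rrp9 covered, beside 39.6% of protein-coding genes with a peak. Of the 6 genes for box H/ACA proteins, Gar1 overlapped a peak. Of 10 paraspeckle protein genes, 8 overlapped a peak, among them Hnrnpk with 25.2% and Sfpq with 17.2% covered, whereas Nono and Pspc1 did not, and the same 39.6% stands beside both counts. Of 12 other nuclear or neural lncRNAs found in the annotation 6 overlapped a peak, beside 22.8% of noncoding genes, with 32.2% of Pvt1 covered, and Meg3, Mirg, Xist, Tsix, H19 and Rmst, like Miat, did not. These 12 had a median length of 26.8 kb, against 6.395 kb in noncoding genes, so the 2 shares are not alike in length.

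**Figure D5:**
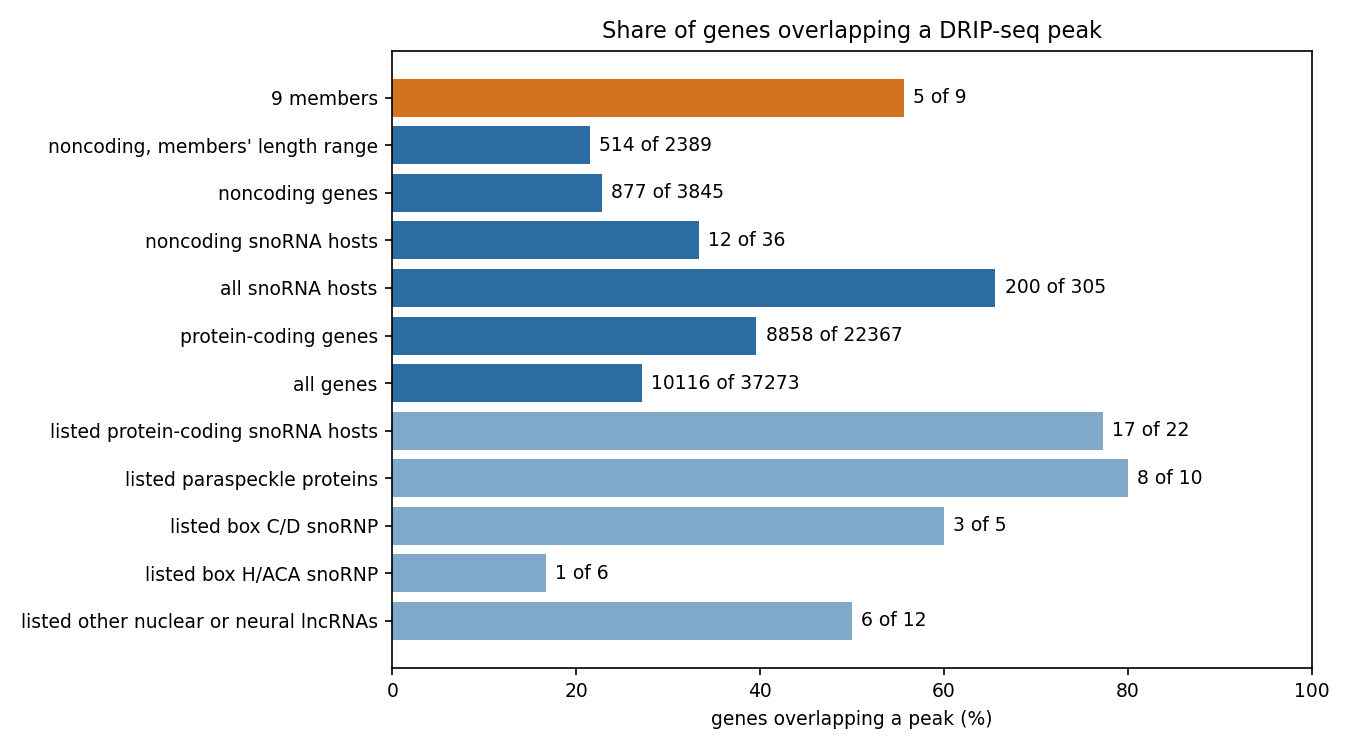
Bars give the percentage of genes that overlap a peak by at least 1 bp, with the counts beside them, for the 9 genes (orange), sets taken from the whole annotation (dark blue) and short lists chosen by name (light blue). The 9 genes stand at 5 of 9, noncoding genes at 877 of 3845 and snoRNA hosts at 200 of 305, sets that differ in gene length.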

How the data were processed

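NSPC DNA was digested, precipitated with S9.6 and sequenced. Reads had been trimmed (Trim Galore 0.6.6, in the submitters' processing notes), aligned to NCBI37/mm9 and freed of duplicates, and a Hidden Markov Model served to call the peaks. Per the methods and labels, 9 DRIP reactions from 3 biological replicates were pooled into a library for each replicate. How the libraries were combined into a single peak list is not given in the sources used here. The authors deposited 1 list of peak positions in base pairs, with no score, signal or count. The input library was not used here, and the depth is unknown.

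Peaks were intersected with GENCODE M1 genes of the same build in Python 3.11.15 with numpy 2.4.6, and figures were drawn with matplotlib 3.10.9. The gene's outermost annotated start and end served as TSS and TES. The genes named are the listed members, their snoRNAs and neighbours, the other lists and the hosts with the largest covered share. Members, lists and the named genes were chosen with earlier results of these data known. Noncoding genes are those annotated as lincRNA or processed transcript. RefSeq served for synonyms only. Results for some genes of the lists and neighbours are not reported here. Digest fragments run between neighbouring sites, without allowance for incomplete cutting. Interval steps were tested on simulated data. Alternatives were a minimum peak width of 1 kb, joining peaks separated by less than 1 kb, other overlap rules, a margin of 5 kb, the ends of any transcript, exons alone and skew windows of 500 bp and 2 kb. The comparison with digest fragments, the edges near sites and the synonyms were added after seeing the data.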

Additional observations from a re-analysis of the deposited data

How the results depend on the processing

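The 5 genes that overlapped a peak and the 5 with a peak within 2 kb kept these counts under every alternative run for them. The number with a TES in a peak moved from 2 to 5 when the end of any annotated transcript was used. Over the first 500 bp in place of 1 kb, the skew turned to -0.00444 in Snhg1 and -0.00752 in Snhg12. The other counts stayed within the limit set for a change under all 16 alternatives run for them. That limit was wide. Noncoding genes overlapping a peak fell from 877 to 588 when the larger part of the peak had to lie inside. Genes with a TSS in a peak rose from 3 to 4, by Snhg12, when the start of any transcript was used. Of the alternatives for single genes and peaks 87 stayed and 13 moved. With 2 kb added on each side, the share covered was 53.9% in Gas5, 46.0% in Snhg1 and 19.9% in Snhg12. Neat1 had 1 peak once peaks narrower than 1 kb were dropped, and 10.4% of it was covered. The number of peaks was 1 for Gas5 without the margin and 2 for Snhg1 with 5 kb. No paired analysis was possible because 1 list was analysed. No height, score or depth stands behind a peak, so none could be ranked by strength, and a gene without a peak may still form hybrids below the caller's limit.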
